A study of Rattus norvegicus with 18 samples.

Results

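Rat hippocampal neurons carrying lentiviral shRNAs against MEF2A and MEF2D were compared with neurons carrying control shRNAs, as the mean of the RNAi-minus-control differences at 3 times. All 18 arrays of the series entered the comparison, 9 titled MEF2 RNAi and 9 titled Control, 3 in each of 6 groups. Cells were kept in dissociated culture and transduced on day 3. On day 10 both arms were silenced for 1 h with AP5, an NMDA receptor antagonist, and TTX, a sodium channel toxin. KCl at 55 mM, which depolarizes the membrane, followed for 1 or 6 h, and the 0 h groups had the silencing without KCl. Affymetrix arrays measured mRNA as 1 signal per probe set, a group of oligonucleotides read out together. The labels give neither the shRNA sequences nor the promoter that drives them, and there is 1 knockdown condition, so loss of MEF2 and any other effect of these shRNA viruses cannot be told apart. Arrays of a group are labelled as biological replicates 1 to 3, with no word on whether a number is a separate culture, so p-values may measure only technical spread.

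MEF2 proteins are MADS-box transcription factors that bind AT-rich DNA as dimers. Class IIa histone deacetylases hold them in a repressing state, and calcium influx through depolarization, acting on calcineurin and calcium-dependent kinases, releases them to activate transcription. In hippocampal neurons they are known for restricting the number of excitatory synapses and for controlling activity-dependent genes. An average over times has 9 pairs of arrays behind it instead of 3, from 3 replicate numbers, but it can be carried by 1 of the times. Values at each time are given for only a part of the genes where they diverge.

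Differences are log2 values, RNAi minus control, fitted with limma with the replicate number as a block. Genes with an adjusted p under 0.05 are termed called. Of 10934 genes tested, 5229 (47.8%) were called on the average, 2942 (26.9%) higher and 2287 (20.9%) lower with RNAi. Most of these differences were small. The median size over called genes was 0.21 against 0.10 over all genes, and the median over all genes was 0.01. The arrays as deposited share a nearly equal median, so this value could not show a shift of a whole arm. Called genes that also differed at least 1.5-fold numbered 314 (2.87%), with 141 (1.29%) higher and 173 (1.58%) lower. At least 2-fold, 12 genes were higher and 28 were lower. Members of the gene lists below are therefore read against these shares. Signals describe each gene against itself, since probe sets of different genes are not on a common scale.

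The MEF2 family itself came first. Mef2a signals lay between 1534 and 2331 (median 1928) on the 9 control arrays and between 443 and 620 (median 577) on the 9 RNAi arrays. No RNAi array reached the lowest control array, a separation of all 9 from all 9 arrays that 4.51% of the tested genes showed in either direction. The averaged difference was -1.80 (SE 0.05, n = 9 arrays per arm from 3 replicate numbers, adjusted p = 5.39e-12), which is 3.47-fold lower. By replicate number it was -1.84, -1.69 and -1.86. The other Mef2a probe sets gave -1.69, -1.17 and -0.67, and all were called. Mef2d had signals of 380 to 591 (median 423) in control and 265 to 388 (median 303) in RNAi arrays. The arms overlapped over all times but not within any time, as for 13.2% of the tested genes, and Mef2d fell by 0.50 (SE 0.04, adjusted p = 3.46e-08). Its other probe set was not called, at -0.07. Mef2c, which the labels do not name as a target, was also lower, by a smaller amount, at -0.29 (SE 0.04, adjusted p = 2.30e-05) and -0.20 on its other probe set. Its signals were 575 to 1165 (median 706) against 436 to 1006 (median 580), with the arms separate at only 1 time but the RNAi array lower in 9 of 9 pairs. Mef2b was not called, at 0.04 (SE 0.04, adjusted p = 0.365).

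Among 11 tested regulators of MEF2, 8 were not called, while 47.8% of all genes tested were called. Carm1, a methyltransferase coactivator, was lower at -0.28 (SE 0.05). Its mean signals with RNAi were 74.0%, 93.4% and 80.9% of control at 0, 1 and 6 h. Cabin1, a repressor of MEF2 and calcineurin, was higher at 0.22 (SE 0.03). Hdac4, a class IIa deacetylase, was higher at 0.19 (SE 0.06, adjusted p = 0.0154), but its adjusted p was 0.0750 without the replicate block. Hdac5 and Hdac7, of the same class, stood at 0.01 and 0.05 and were not called.

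**Figure D1:**
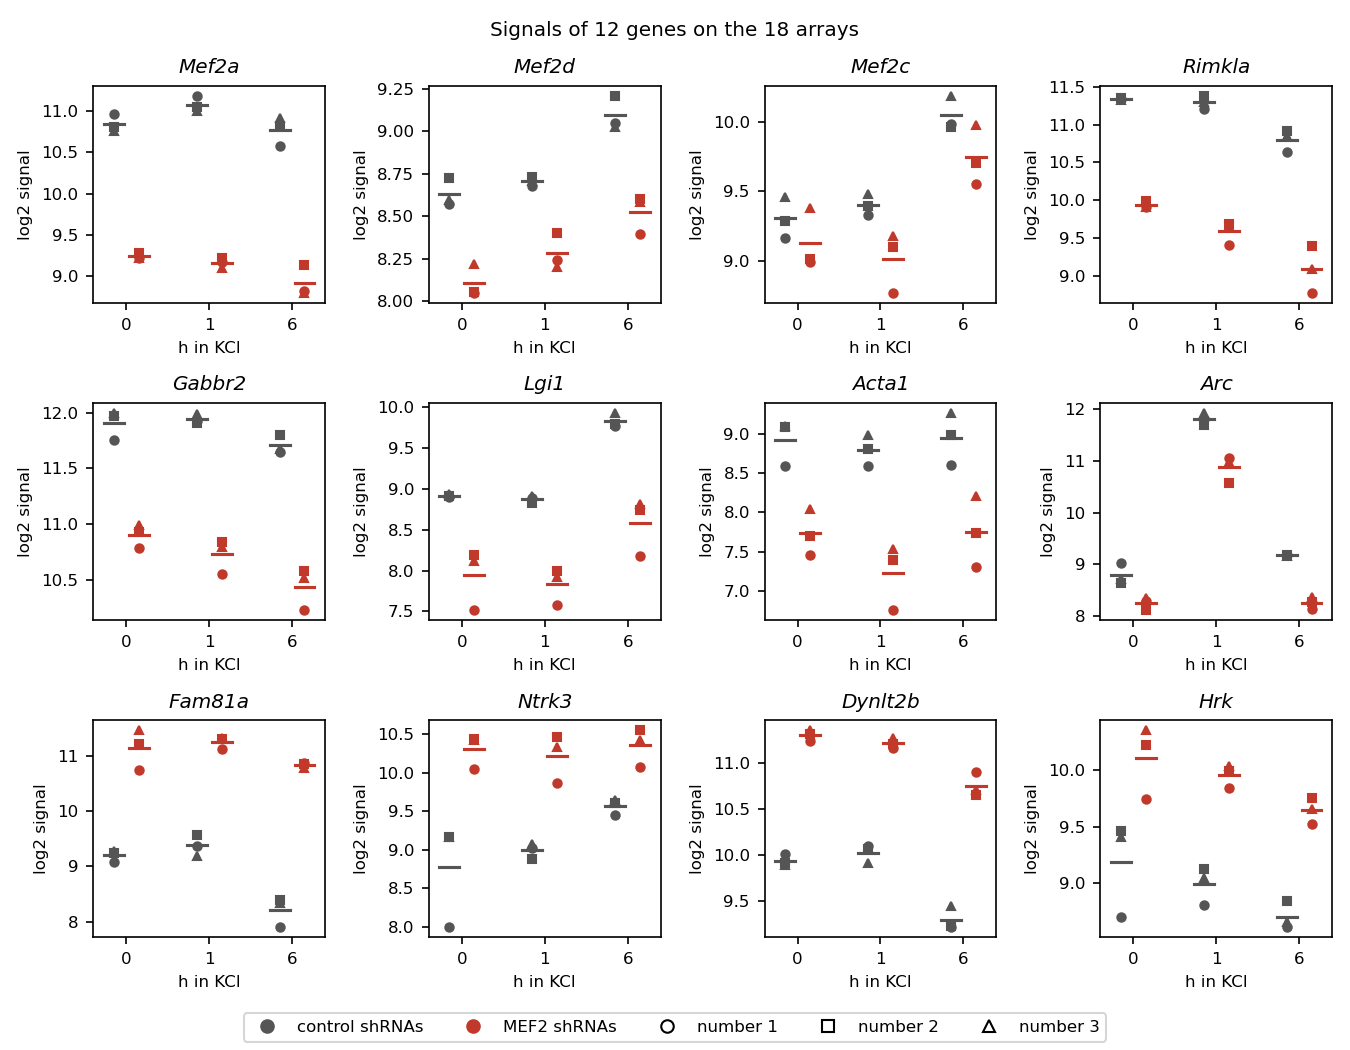
Log2 signal (y axis) of 12 genes on the 18 arrays, by h in KCl (x axis), for control (grey) and MEF2 RNAi (red), with a symbol for each replicate number and a bar at the mean of each group of 3. Mef2a, Rimkla and Gabbr2 sit lower and Fam81a, Ntrk3 and Dynlt2b higher on every RNAi array, while Arc moves with KCl in both arms and stays lower with RNAi at each time.

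Promoters were searched for the MEF2 consensus, the AT-rich decamer that these factors bind, since MEF2 proteins are the knocked-down factors. RefSeq (GRCr8) gave 1 promoter for 8505 of the 10934 genes, and the window was the 250 bases before the start. Of 119 called genes at least 1.5-fold lower, 5 (4.20%) held the consensus on either strand, against 1.22% of all promoters of the same length. The 5 include Mef2a itself, which the shRNAs target, so its place among the lower genes is no independent finding. The count is too small to order the groups. It was 1 of 109 (0.917%) for genes at least 1.5-fold higher, 25 of 1739 (1.44%) for all genes called lower and 26 of 2357 (1.10%) for all called higher. The 6 stretches of the 2 larger-change groups follow, because they are the places where a consensus lies near a gene that differed. Each is read 5′ to 3′ on the strand of the gene, with the consensus match in capitals.
Mef2a: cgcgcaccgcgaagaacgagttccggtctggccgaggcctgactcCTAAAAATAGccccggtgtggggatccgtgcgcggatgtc
Nexmif: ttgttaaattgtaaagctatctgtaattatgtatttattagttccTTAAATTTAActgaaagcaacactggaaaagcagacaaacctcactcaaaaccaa
Rab15: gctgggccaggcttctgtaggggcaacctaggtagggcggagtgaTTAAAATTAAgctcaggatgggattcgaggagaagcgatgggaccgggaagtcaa
Hist3h2ba: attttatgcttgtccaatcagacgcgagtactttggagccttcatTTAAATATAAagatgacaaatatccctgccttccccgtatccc
Usp13: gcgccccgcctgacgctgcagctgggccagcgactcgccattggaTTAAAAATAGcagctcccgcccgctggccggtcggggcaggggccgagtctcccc
Hrk: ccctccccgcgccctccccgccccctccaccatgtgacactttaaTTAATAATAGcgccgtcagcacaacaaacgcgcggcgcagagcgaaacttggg

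The Mef2a stretch lies at chr1:130392163-130392247 on the minus strand and its match starts 40 bases before the start site. The others lie at chrX:73178777-73178876 (minus, Nexmif), chr6:101257182-101257281 (minus, Rab15), chr10:44225333-44225420 (plus, Hist3h2ba), chr2:117505318-117505417 (plus, Usp13) and chr12:44070562-44070659 (minus, Hrk), all GRCr8. Averaged differences of these genes were -0.96 for Nexmif, -0.87 for Rab15, a small GTPase of endosomes, -0.72 for the histone gene Hist3h2ba, -0.63 for the deubiquitinase Usp13, and 0.94 for Hrk. CTANNNNTAG, a spelling looser than the consensus in the middle and stricter at both ends, overlaps it in part. It was in 2.60% of all promoters, 1.68% of the lower and 3.67% of the higher group at 1.5-fold. TGACGTCA, the full cyclic AMP response element, was in 3.10%, 3.36% and 3.67%. The SRF CArG box was in 1.15%, in 3 of 119 and in 0 of 109. A match is only a string of letters in the window, and enhancers were not searched.

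The largest falls besides Mef2a were spread over metabolism, structure and signalling. Rimkla, which makes the dipeptide transmitter N-acetylaspartylglutamate, had signals of 1600 to 2662 (median 2518) in control and 439 to 1014 (median 812) in RNAi arrays. The arms did not overlap, and Rimkla was 3.04-fold lower (-1.60, SE 0.05, adjusted p = 5.39e-12), with -1.96 and -1.06 on its other probe sets. Esrrg, an orphan nuclear receptor of oxidative metabolism, fell from 173 to 359 (median 260.0) in control to 59.7 to 129 (median 84.4) in RNAi arrays. Its difference was -1.44 (SE 0.08), with 1 RNAi array at the floor, the 20th percentile of the table below which no values were distinguished. No RNAi signal of Esrrg exceeded its array's 40th percentile, so the gene was tested through the control arm alone. Acta1, the skeletal muscle actin, fell from 384 to 614 (median 504) to 109 to 296 (median 186), or -1.31 (SE 0.05), again without overlap.

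Gabbr2, the subunit through which the metabotropic GABA receptor couples to G proteins, had control signals of 3210 to 4093 (median 3854) and RNAi signals of 1198 to 2036 (median 1766). The 9 and 9 arrays did not overlap, at -1.16 (SE 0.04, adjusted p = 9.03e-12). Gabbr1, the ligand-binding subunit of the same receptor, was not called, at -0.0023 (SE 0.04). Lgi1, a secreted protein that links presynaptic and postsynaptic complexes, fell from 453 to 977 (median 481) to 183 to 449.5 (median 278), or -1.09 (SE 0.07). Nefm, the medium neurofilament subunit, fell from 4431 to 5462 (median 4795) to 1844 to 2712 (median 2419), or -1.04 (SE 0.06). Neither Lgi1 nor Nefm overlapped between arms.

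Other genes among the 20 largest falls act on microtubules, on protein modification or outside the cell. Dynlt3, a dynein light chain, was at -1.24, and Tppp, which promotes tubulin polymerization, was at -1.22. Zdhhc2, a palmitoyltransferase of postsynaptic proteins, was at -1.13 and Prmt8, a membrane-bound arginine methyltransferase of brain, at -1.09. The extracellular proteins Edil3 and Coch were at -1.39 and -1.34. Crym, which binds thyroid hormone, was at -1.06 and Akap11, an anchor for protein kinase A, at -1.05, although the other Akap11 probe set gave only -0.27. Tp53i11 at -1.21, Hdgfl3 at -1.23, Ildr2 at -1.13 and Cpd at -1.11 complete this set together with Tchh, a structural protein of hair follicle sheath, at -1.47. SE lay between 0.04 and 0.12 for these genes. The RNAi array was lower in 9 of 9 pairs for each, which the choice of the 20 largest falls required.

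The largest rises were led by Fam81a, Tmtc1 and Dynlt2b. Fam81a signals were 239 to 761 (median 585) in control and 1714 to 2828 (median 2221) in RNAi arrays. The lowest RNAi array was above the highest control array, and the difference was 2.14 (SE 0.07, adjusted p = 1.35e-11), or 4.40-fold, with 1.06 and 1.70 on the other probe sets. Tmtc1, a mannosyltransferase of the endoplasmic reticulum that modifies cadherins, was at 150.4 to 547 (median 377) against 518 to 1609 (median 1038). Its arms overlapped over all times because both fell in KCl, but at each time they were separate, and the difference was 1.64 (SE 0.05). Dynlt2b, a dynein light chain, was at 592 to 1094 (median 960) against 1605 to 2625 (median 2353), without overlap, at 1.34 (SE 0.05).

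Ntrk3 encodes TrkC, the receptor for neurotrophin-3. Its signals were 255 to 798 (median 572) in control and 936 to 1506 (median 1375) in RNAi arrays, without overlap. The difference of 1.18 (SE 0.10, adjusted p = 1.06e-07) was larger at 0 h (1.53) than at 6 h (0.79), and 1 control array of 0 h, number 1, was low at 255. Ntf3, which encodes neurotrophin-3 itself, moved the opposite way. Its signals were 258 to 413 (median 329) in control and 110.1 to 223 (median 161) in RNAi arrays, again without overlap, at -0.98 (SE 0.07).

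Ttr, the thyroxine carrier made abundantly by choroid plexus, was at 508 to 2514 (median 1145) in control and 1535 to 3988 (median 3257) in RNAi arrays. It was higher in 9 of 9 pairs, as its choice among the largest rises required, at 1.26 (SE 0.14). The arms were separate at only 1 time because the numbers differed widely. Choroid plexus markers were not among the lists, and their part in the Ttr difference was not tested. Fam107a behaved in the same manner, at 239 to 895 (median 567) against 547 to 2005 (median 1162). It was higher in 9 of 9 pairs, again by the rule of choice, at 1.16 (SE 0.06). The arms were separate at none of the times, and its other probe set gave only 0.12.

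The rest of the 20 largest rises have varied roles. Edem1, which sends misfolded glycoproteins to degradation, was at 1.09, with 0.23 on its other probe set. Reep1, which shapes the tubular endoplasmic reticulum, was at 0.96. Tbc1d16, a Rab GTPase-activating protein, was at 1.18, the small GTPase Rab2b at 0.98 and the phosphoinositide phosphatase Mtmr6 at 0.98. In mitochondria, Gcsh of the glycine cleavage system was at 1.08 and Coq2 of coenzyme Q synthesis at 0.95. The palmitoyltransferase Zdhhc7 was at 1.02, Slc7a14 at 1.02, Mcf2l at 0.98, and Zfand2a, a stress-induced regulator of the proteasome, at 0.99. C8h11orf87 at 1.18, Plcxd3 at 0.98 and Smim3 at 0.97 make up the remainder. SE lay between 0.04 and 0.09. Every one was higher in 9 of 9 pairs, which the choice of the 20 largest rises required. No control signal of Plcxd3 exceeded its array's 40th percentile, so that gene was tested through the RNAi arm alone.

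The shape over time was examined next, since an average can hide opposite effects. All 314 genes called at 1.5-fold had the same sign at 0, 1 and 6 h, 307 had it in 9 of 9 pairs, and 299 were called at each time singly. Their median sizes were 0.75, 0.79 and 0.71 at 0, 1 and 6 h. These genes were chosen on the average of the same values, so the counts describe them and test nothing. Over all 5229 called genes, 325 changed sign among times. Across the 10934 genes the differences at 0 h correlated with those at 1 h at r = 0.841 and with those at 6 h at r = 0.729, as a description over genes that share arrays' scale and are not independent. Each time has arrays of its own in both arms. Singly, 2847 genes (26%) were called at 0 h, 3073 (28.1%) at 1 h and 3084 (28.2%) at 6 h.

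**Figure D2:**
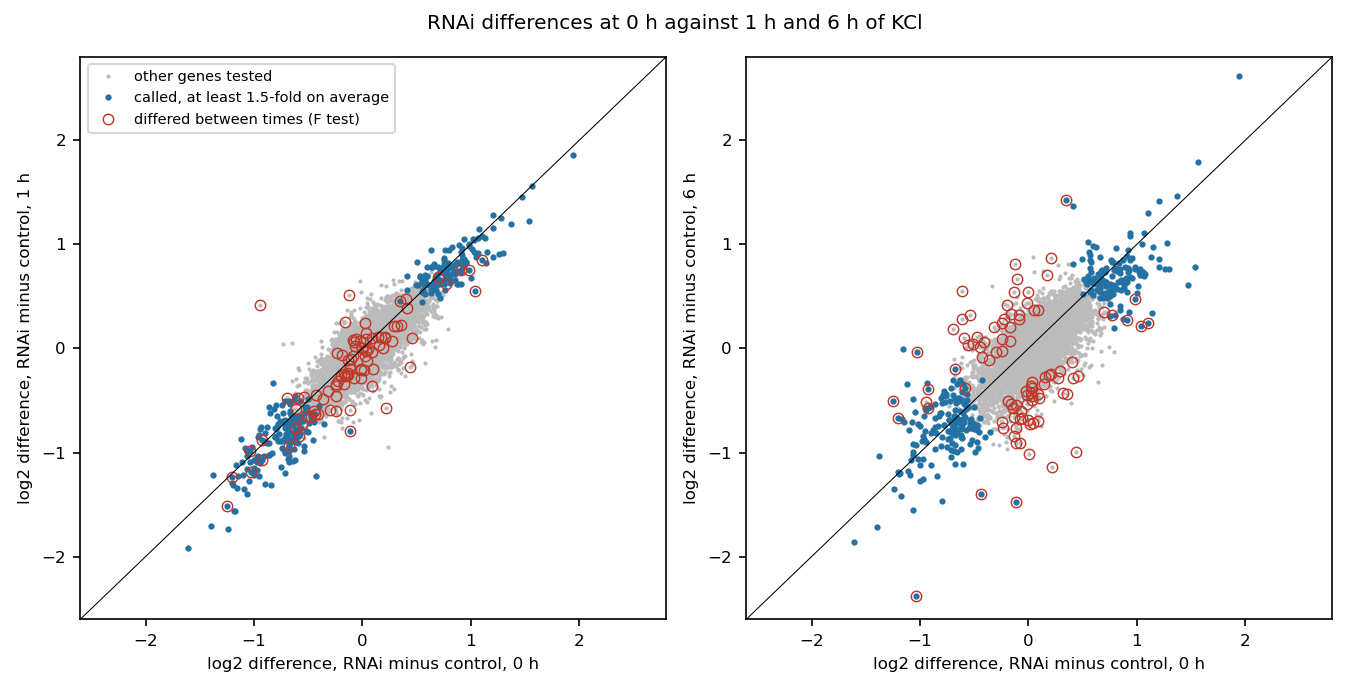
Log2 difference, RNAi minus control, at 0 h (x axis) against 1 h (left y axis) and 6 h (right y axis) for the 10934 genes tested, with the diagonal of equal difference. The 314 genes called at 1.5-fold (blue) follow the diagonal at 1 h and spread more at 6 h, and the 94 genes whose difference differed between times (red rings) leave it mainly at 6 h.

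A moderated F test asked whether the 3 differences of a gene were equal. It called 94 genes (0.86%), of which 74 were also called on the average and 15 were among the 314. At 1 h against 0 h alone, limma called 0 genes (730 at an unadjusted p under 0.05), and at 6 h against 0 h it called 126 (1556). The count of 94 rested on single arrays. Dropping RNAi 6 h number 1, 2 or 3 gave 31, 51 or 33, dropping control 6 h number 2 or 3 gave 43 or 36, and dropping RNAi 1 h number 2 or 3 gave 60 or 56. Without the replicate block it was 5. A gene that the F test did not call is not thereby shown to have equal differences.

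Among genes called in both tests, 7 of the 10 with the smallest F-test p were further apart at 6 h. Trpc6, a calcium-permeable channel, had control signals of 99.2 to 111 at 0 h and 419.5 to 439 at 6 h, and RNAi signals of 65.5 to 86.3 and 147 to 181. Its differences were -0.44, -0.63 and -1.40 at 0, 1 and 6 h, with 3 RNAi arrays at the floor, so the earlier differences are understated. Otud1, a deubiquitinase, rose in control from 658 to 766 at 0 h to 2748 to 2965 at 6 h, but in RNAi arrays from 587 to 766 to only 935 to 1257, with differences of -0.11, -0.80 and -1.48. Sh3rf1, a scaffold of JNK signalling, stood at -0.08, -0.28 and -0.91. Pwwp3b stood at -0.13, -0.23 and -0.84, the synaptic scaffold gene Lin7a at -0.11, -0.19 and -0.77, and Prkca, a protein kinase C, at -0.08, 0.06 and -0.68. Trpc6 exceeded its array's 40th percentile only on arrays of 6 h, the time of its largest difference, and was tested through them. Pwwp3b exceeded it on the 6 h arrays and on control 1 h number 1. Lin7a was tested only because its 3 control arrays of 6 h exceeded their 40th percentile. Its signals at 0 and 1 h, 78.7 to 96, lay close above the floor of 72.6. Sdhaf3, an assembly factor of succinate dehydrogenase, was higher instead, at 0.21, 0.11 and 0.87.

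In the other three the 6 h value was smaller or turned. Imp3 went from -0.67 and -0.94 to -0.20. Chodl was at -0.61 and -0.77 and then at 0.55, and Neurod6, a transcription factor of glutamatergic neurons, at -0.32 and -0.41 and then at 0.21. Their averages of -0.27 and -0.17 therefore describe no single time. Without the 6 h arrays Prkca stood at -0.01 and was no longer called (adjusted p = 0.933).

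**Figure D3:**
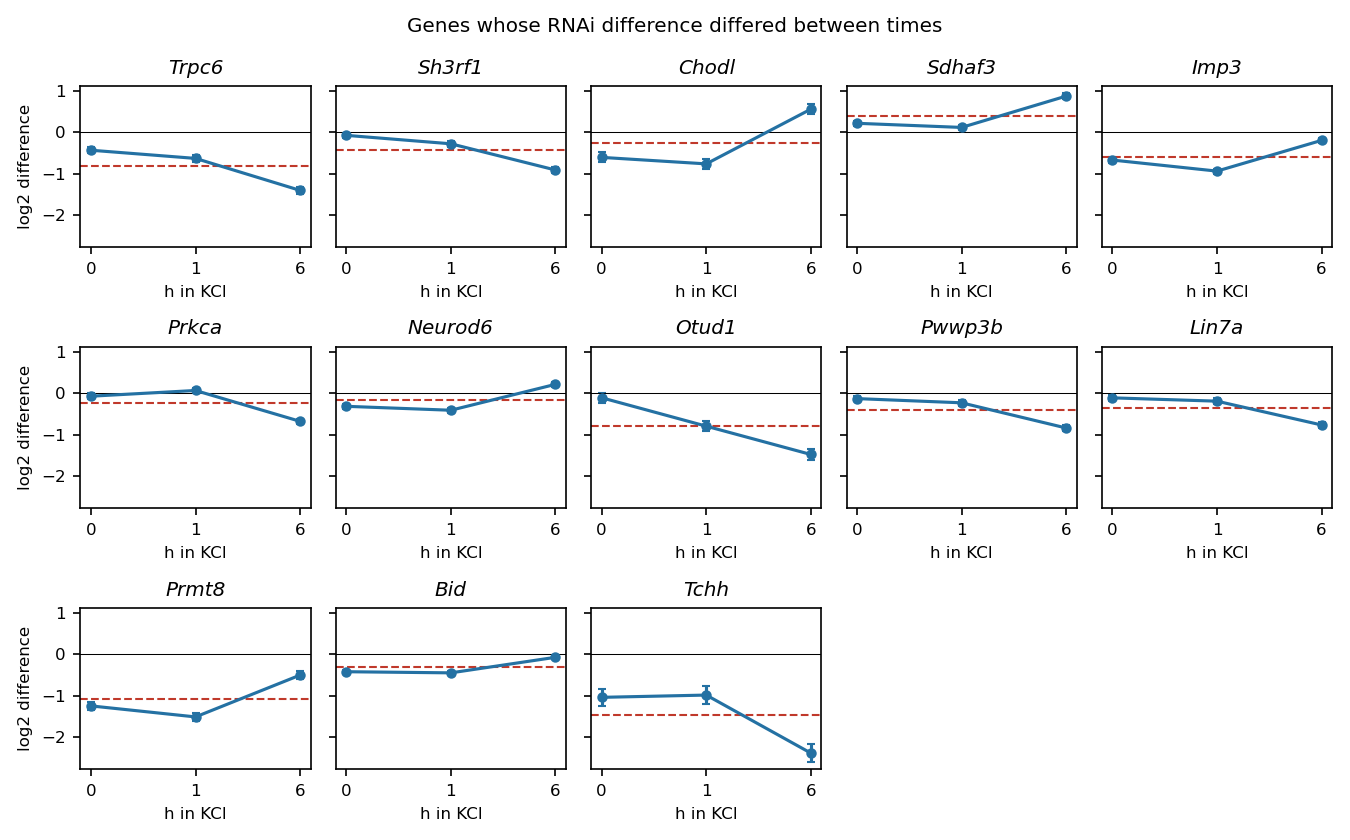
Log2 difference, RNAi minus control (y axis), by h in KCl (x axis) for 13 named genes that the F test called, with error bars of 1 SE and the average of the 3 times as a dashed line. Trpc6, Otud1 and Tchh move away from 0 at 6 h, and Chodl and Neurod6 cross it.

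Genes reported as MEF2 targets were lower more often than higher. Of 25 tested, 16 were called lower and 4 higher, against 20.9% and 26.9% of all genes tested. Their median was -0.24 against 0.01 for all genes. The list was chosen with earlier results of these data known, so its counts are a description. Arc, whose protein drives endocytosis of AMPA receptors, was at 398 to 583 in control and 277 to 329 in RNAi arrays at 0 and 6 h. At 1 h it was at 3306 to 3889 in control and 1526 to 2130 in RNAi arrays. The arms were thus separate at each time, and the average was -0.80 (SE 0.06, adjusted p = 2.40e-08). Lgi1 is given above. Kcna4 was at -0.55, Camk2b at -0.29 and Homer1 at -0.14. Klf2, a transcription factor, was at -0.67, but its other probe sets gave 0.03 and 0.04 and were not called. Bdnf was called at -0.23 (SE 0.08, adjusted p = 0.0279), with differences of 0.09, -0.08 and -0.70 at the 3 times. Nr4a1 was not called, at -0.24 (SE 0.12, adjusted p = 0.122). Bcl2l1, which protects from apoptosis, was higher at 0.26. Without the 6 h arrays 10 targets were lower instead of 16. The 4 called higher became 2 without the block, without the 0 h arrays or without number 3. They also became 2 when any of 9 single arrays was dropped, namely RNAi 0 h of each number, RNAi 1 h number 2, RNAi 6 h numbers 1 and 3, control 0 h and 1 h number 3 and control 6 h number 2.

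Immediate early transcription factors, 26 tested and partly the same genes, had 14 lower, 3 higher and a median of -0.24. Shares over all genes tested were 20.9% lower and 26.9% higher. Egr2 was at -0.65 (SE 0.11) and Egr4 at -0.50. Mean Egr2 signals with RNAi were 72.7%, 42.9% and 82.6% of control at 0, 1 and 6 h. Nr4a3 was called on all of its probe sets, at -0.45, -0.24 and -0.63. The probe set at -0.24 stood at 0.22, 0.15 and -1.10 at 0, 1 and 6 h, so its fall was at 6 h only. On the brightest, mean Nr4a3 signals with RNAi were 87.5%, 78.9% and 58.8% of control. Srf, a MADS-box relative of MEF2, was lower at -0.30 in 9 of 9 pairs. Fos was not called, at -0.22 (SE 0.18, adjusted p = 0.345), Jun was higher at 0.13 and Fosl1 at 0.30. Without the 6 h arrays 6 were lower, and without replicate number 2, 8 were lower. The 3 called higher became 0 without number 3 and 1 without number 2, without the 6 h arrays or without the block. Dropping single arrays gave 1 to 4. It gave 1 for control 1 h and 6 h number 2, control 0 h number 3, RNAi 0 h numbers 1 and 2, RNAi 1 h numbers 2 and 3 and RNAi 6 h numbers 1 and 3.

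Scaffolds of excitatory synapses were lower in 16 of 22, with 1 higher and a median of -0.21. Over all genes tested, 20.9% were lower and 26.9% higher. Cnksr2 had control signals of 1029 to 1499 (median 1254) and RNAi signals of 502 to 997 (median 761), without overlap, at -0.73 (SE 0.09). Shank3 was at -0.62, Dlgap3 at -0.51, Dlg2 at -0.48 and Camk2a, a kinase abundant in the postsynaptic density, at -0.35. Shank1 was at -0.67 on its brightest probe set, but its other probe sets gave -0.02 and 0.01 and were not called. Dlg1 was the member called higher, at 0.21, and Dlg4, which encodes PSD-95, was not called, at 0.01 (SE 0.06).

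Most glutamate receptor genes were not called. Of 18 tested, 5 were lower, 1 was higher and 12 were not called, with a median of -0.07. Over all genes tested, 20.9% were lower and 26.9% higher. Gria1 and Gria3, AMPA receptor subunits, differed in opposite directions. Gria1 signals were 355 to 604 (median 445) in control and 231 to 409 (median 339.7) in RNAi arrays, at -0.50 (SE 0.09), lower in 9 of 9 pairs with overlap. Gria3 signals were 205 to 369 (median 325) in control and 372 to 494 (median 408) in RNAi arrays, at 0.42 (SE 0.07), without overlap. The NMDA receptor subunits Grin2b and Grin1 were at -0.24 and -0.14. For Grin1 the other probe set was called higher, at 0.38, so its direction depends on the probe set. Without number 2, 3 were lower. Without the block 2 were lower, and Grin2b and Grin1 were not called (adjusted p = 0.0746 and 0.0657).

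On the inhibitory side 6 of 13 genes were lower and 2 higher, with a median of -0.01. Shares over all genes tested were 20.9% and 26.9%. Besides Gabbr2, the receptor subunit Gabra2 was at 809.9 to 1538 (median 1193) in control and 404 to 898 (median 732) in RNAi arrays, or -0.83 (SE 0.09). The arms overlapped over all times. Slc32a1, the vesicular GABA transporter, was at -0.58 and Gabra4 at -0.41. Gabrb1 was the largest rise, from 1904 to 3375 (median 2180) to 3299 to 5253 (median 4059), at 0.80 (SE 0.04). Gabra2 and Gabrb1 arms were each separate at 3 of 3 times. Gad1, which makes GABA, was not called, at 0.03 (SE 0.06).

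The release machinery had 6 of 20 genes lower, 5 higher and a median of 0.00, against 20.9% lower and 26.9% higher over all genes tested. Stx1a, a plasma membrane SNARE, was at -0.69, and the vesicular glutamate transporters Slc17a7 and Slc17a6 were at -0.60 and -0.43. Cplx1, which clamps SNARE complexes, rose from 3358 to 4731 (median 4174) to 5606 to 6476 (median 6395), at 0.60 (SE 0.04), without overlap. Syn2, a synapsin, was at 0.46, and Vamp1 at 0.58, with 0.15 and 0.01 on its other probe sets. Syp was not called, at 0.03.

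**Figure D4:**
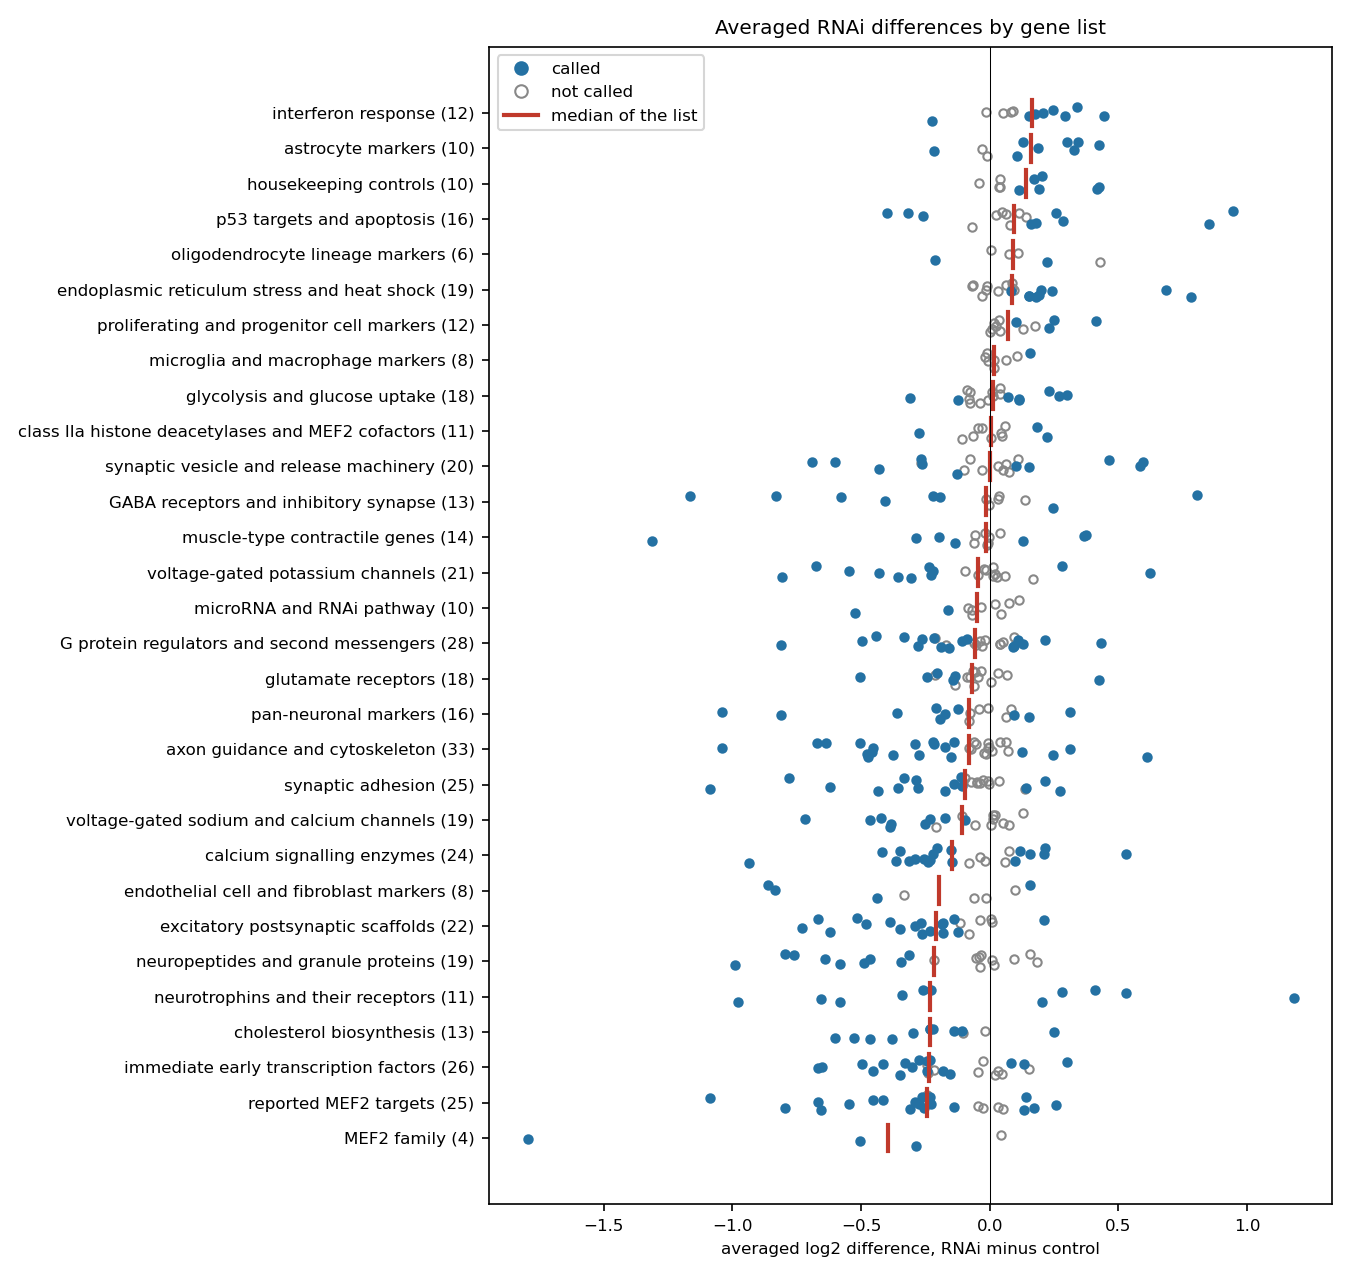
Averaged log2 difference, RNAi minus control (x axis), of every tested member of 30 gene lists (rows, number tested in brackets), filled where called and open where not, with a red bar at the median of the list. Excitatory scaffolds, reported targets, immediate early genes and cholesterol enzymes lie mostly to the left of 0, and interferon, astrocyte and housekeeping genes mostly to the right.

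Adhesion and wiring genes leaned lower, read against 20.9% lower and 26.9% higher over all genes tested. Of 25 synaptic adhesion genes, 12 were lower and 3 higher (median -0.10), with 1 higher without the block, without the 0 h arrays or without number 3. Nrxn3, a presynaptic neurexin, was at -0.78 (SE 0.07), Epha4 at -0.62 on its brightest probe set and -0.56 and -0.48 on the others, and Pcdh17 at -0.43. Nlgn1 was not called, at -0.02. Of 33 axon guidance and cytoskeleton genes, 16 were lower and 4 higher (median -0.08). The semaphorin coreceptors Nrp1 and Nrp2 were at -0.64 and -0.51, the netrin receptor Unc5a at -0.67 and the Slit receptor Robo2 at -0.47. Efna5, a ligand of Eph receptors, rose by 0.61 (SE 0.05), and the heavy neurofilament gene Nefh by 0.31.

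All 11 genes tested of the neurotrophins and their receptors were called, 5 higher and 6 lower, against 47.8% called over all genes tested. Without the block, and also without number 2, 4 were higher and 5 lower. Besides Ntrk3 and Ntf3, the low-affinity receptor Ngfr was at 142 to 189.5 (median 167) in control and 91.8 to 128 (median 109.6) in RNAi arrays, at -0.58 (SE 0.05), without overlap. No RNAi signal of Ngfr exceeded its array's 40th percentile, so the gene was tested through the control arm alone. Ntrk2, the receptor of BDNF, was higher at 0.28. The sorting receptors divided, with Sorcs3 at -0.66, Sorcs2 at 0.41 and Sort1 at 0.53, the last with -0.02 on its other probe set. Direction thus differed among receptors and among sorting proteins.

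Neuropeptides and granule proteins had 9 of 19 lower and 0 higher (1 at an unadjusted p under 0.05 in limma), with a median of -0.22. Over all genes tested, 20.9% were lower and 26.9% higher. Sst, the inhibitory peptide somatostatin, was at 1807 to 4467 (median 2783) in control and 799.9 to 3121 (median 1136) in RNAi arrays. It was lower in 9 of 9 pairs, at -0.99 (SE 0.09), and the arms were separate at 2 of 3 times. Npy was at -0.79, Tac1 at -0.76, Cck at -0.46, and the processing enzyme Pcsk2 and the granule protein Chgb at -0.64 and -0.58. Sst, Npy, Cck and Slc32a1 are expressed by interneurons, whereas Gad1, the general marker of GABA neurons, was not called (0.03, SE 0.06). In bulk RNA, fewer cells of a type and less RNA per cell cannot be told apart.

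Called channel genes were mostly lower, read against 20.9% lower and 26.9% higher over all genes tested. Of 21 voltage-gated potassium channel genes, 9 were lower and 2 higher (median -0.05). Kcnip2, an auxiliary subunit of A-type channels, was at 1197 to 1595 (median 1297) against 659.7 to 881 (median 765), at -0.81 (SE 0.04), without overlap. Kcnh1 was at -0.68 and Kcnip3 at -0.43. Mean Kcnh1 signals with RNAi were 52.1%, 58.3% and 79.0% of control at 0, 1 and 6 h. Kcnab1 was higher at 0.62, with 0.13 on its other probe set, which was not called. Of 19 sodium and calcium channel genes, 9 were lower and 0 were higher, also 0 at an unadjusted p under 0.05 in limma (median -0.11), while 10 were not called. Scn3b, an auxiliary sodium channel subunit, was at 4522 to 5761 (median 5376) against 2547 to 3726 (median 3349), at -0.72 (SE 0.04) and -0.75 on its other probe set, and the pore subunits Scn2a and Cacna1c were at -0.39 and -0.38.

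Calcium signalling enzymes had 13 of 24 lower and 6 higher (median -0.15), against 20.9% lower and 26.9% higher over all genes tested. Of the list, 2 were higher without the block and 3 without the 6 h arrays or without number 3. The calcineurin regulators diverged. Rcan1 was at 0.53 (SE 0.04) and higher in 9 of 9 pairs. Rcan2 was at -0.93 (SE 0.08) and lower in 9 of 9 pairs, but its other probe set gave -0.08 and was not called. On its brightest probe set, mean signals with RNAi were 56.9%, 68.6% and 36.0% of control at 0, 1 and 6 h. Prkcb was at -0.42, and Itpr1, a calcium release channel, at -0.36. Ppp3ca, the catalytic subunit of calcineurin, was at -0.14. Against the same shares, 11 of 28 G protein and second messenger genes were lower and 6 higher (median -0.06). Of these genes, 1 was higher without the block, 3 without the 1 h or the 6 h arrays and 2 without number 3. Prkar2b, a regulatory subunit of protein kinase A, was at -0.50, Rgs17 at 0.43, and the serotonin receptor Htr2c at -0.81, with -0.07 on its other probe set. Mean Rgs17 signals with RNAi were 155.2%, 140.3% and 113.6% of control at 0, 1 and 6 h. The other Rgs17 probe sets were called higher on the average, but at 6 h stood at 0.01, -0.20, 0.0038 and 0.13.

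Cholesterol synthesis was lower in 10 of 13 genes, with 1 higher and a median of -0.23. Shares over all genes tested were 20.9% lower and 26.9% higher. Insig1, which retains the sterol sensor in the endoplasmic reticulum, was at 4281 to 8938 (median 7201) against 2073 to 6689 (median 5401), or -0.60 (SE 0.06). Fdft1, which makes squalene, was at -0.53 and -0.63 on its 2 probe sets, Nsdhl at -0.46 and -0.69, and Cyp51 at -0.38 and -0.53. Both arms separated for these 4 genes at 3 of 3 times. Srebf2, the transcription factor of the pathway, was the gene called higher, at 0.25 (SE 0.03).

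Of 19 endoplasmic reticulum stress and heat shock genes, 9 were higher and 10 were not called (median 0.09). In this list 0 were lower, also 0 at an unadjusted p under 0.05 in limma. Over all genes tested, 26.9% were higher and 20.9% lower. Hmox1, which degrades haem, was at 1935 to 3445 (median 2384) against 3602 to 5499 (median 3873), without overlap, at 0.78 (SE 0.07). Hspb1, a small heat shock protein, was at 0.69 (SE 0.13). The remaining 7 lay between 0.08 and 0.24, and the chaperone Hspa5, the classical marker of the unfolded protein response, was not called, at -0.07 (SE 0.05).

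Of 16 p53 target and apoptosis genes, 6 were higher and 3 lower (median 0.10), against 26.9% higher and 20.9% lower over all genes tested. Ccng1, a cyclin induced by p53, rose from 2682 to 3376 (median 3004) to 4955 to 6047 (median 5475), without overlap, at 0.85 (SE 0.04, adjusted p = 1.15e-10). Hrk, a neuronal activator of apoptosis, rose from 389.9 to 704 (median 457) to 735 to 1314 (median 917), at 0.94 (SE 0.06), also without overlap. Cdkn1a, another p53 target, was at 0.16, Mdm2 was not called, at 0.03, and Sesn1 was lower, at -0.40.

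Of 12 interferon response genes, 7 were higher and 1 lower (median 0.17), against 26.9% higher and 20.9% lower over all genes tested. Gbp2 was at 0.44 (SE 0.07), Ifi27 at 0.34, Tap1 at 0.29 and Irf1 at 0.25, while the interferon-induced Ifit1 and Isg15 were not called, at -0.01 and 0.09. Ifi27 was not called without the block (adjusted p = 0.326). Of 10 genes of the microRNA and RNAi machinery, 2 were lower, near the 20.9% of all genes tested. In this list 0 were higher, also 0 at an unadjusted p under 0.05 in limma (median -0.05). Tnrc6c was at -0.52 and lower on all 4 probe sets, and Drosha was at -0.16, with 0.03 on its other probe set.

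Muscle-type contractile genes showed no common direction beyond Acta1, with 4 of 14 lower, 3 higher and a median of -0.01. Over all genes tested, 20.9% were lower and 26.9% higher. Myh7 was at -0.29 and Actn2 at -0.20, while the smooth muscle genes Tagln and Myl9 were at 0.37. No RNAi signal of Myh7 exceeded its array's 40th percentile, so that gene was tested through the control arm alone. Without the 1 h arrays, number 2 or the block 2 were lower. Without the block Actn2 and Tagln were not called (adjusted p = 0.0677 and 0.175). Glycolysis and glucose uptake genes had 6 of 18 higher and 2 lower (median 0.01), against 26.9% and 20.9% of all genes tested. Aldoc was at 0.30, Pfkm at 0.23 and the neuronal glucose transporter Slc2a3 at -0.31. For Pfkm the other probe sets gave 0.34, which was called, and -0.06, which was not. Slc2a3 stood at -0.65, 0.06 and -0.34 at 0, 1 and 6 h, and without the 0 h arrays it was not called (-0.14, adjusted p = 0.155). The 2 lower genes of this list became 0 without the 0 h arrays and 1 without the 6 h arrays or without number 2 or 3. They also became 1 when any of 9 single arrays was dropped, namely control 1 h number 1, control 0 h and 6 h number 2, control 0 h number 3, RNAi 1 h numbers 1 and 2 and RNAi 6 h of each number. The 6 higher became 3 without the 1 h arrays or without number 2. Housekeeping genes were not level between arms. Hprt1 was at 0.42 (SE 0.03), Tfrc at 0.43, Tbp at 0.21 and Gapdh at 0.11, and 6 of 10 were higher and 0 lower, also 0 at an unadjusted p under 0.05 in limma (median 0.14). Calls for Gapdh were lost without the 1 h arrays (adjusted p = 0.0692).

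Markers of the cell types in the culture differed between arms, by at least 1.5-fold lower for 2 neuronal and 2 endothelial and fibroblast markers. Neuronal markers were at a mean log2 signal of 11.84 to 12.1 on control and 11.66 to 11.99 on RNAi arrays, and 7 of 16 were lower, 3 higher and 6 not called (median -0.08). Nefm, given above, was at -1.04, Nrgn at -0.81, Tubb3 at -0.19 and Map2 at -0.17, whereas Snap25 was at 0.15 and Rbfox3 was not called, at -0.04. Astrocyte markers were at 11.7 to 12.1 and 11.9 to 12.2, with 7 of 10 higher and 1 lower (median 0.16). S100b was at 0.43, Gja1 at 0.34, Aqp4 at 0.33 and Gfap at 0.19, and Aldh1l1 at -0.22. Both ranges overlap between arms, and over all genes tested 20.9% were lower and 26.9% higher. The astrocyte-defining Gfap had signals of 8386 to 11531 in control and 9587 to 13276 in RNAi arrays, well above the floor on every array of these cultures labelled as neurons. Without the 1 h arrays 4 astrocyte markers were higher instead of 7, and Aqp4 was not called without the block (adjusted p = 0.120). Their part in the other differences was not tested.

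Markers of the other lineages are read against 26.9% higher and 20.9% lower over all genes tested. Oligodendrocyte markers had 1 of 6 higher and 1 lower (median 0.09), microglial markers 1 of 8 higher (median 0.02), and proliferating and progenitor markers 4 of 12 higher (median 0.07). Without the block these were 0, 0, 0 and 2. Mean log2 signals in control and RNAi arrays were 9.55 to 10.3 and 9.44 to 10.4, 7.53 to 7.83 and 7.51 to 7.82, and 9.15 to 10.2 and 9.44 to 10.1. Pdgfra was at 2199 to 2541 in control and 3346 to 3773 in RNAi arrays of number 1, and at 449 to 644 and 347 to 472 in those of number 3. In number 2 it was at 703 to 1615 in control and 2442 to 2931 in RNAi arrays. The averaged differences of numbers 1, 2 and 3 were thus 0.57, 1.17 and -0.45, and Pdgfra was not called (0.43, SE 0.21). It was called at 0.87 (adjusted p = 0.00206) without number 3, at 0.60 without control 0 h number 3 and at 0.56 without RNAi 6 h number 3. Endothelial and fibroblast markers were at 8.66 to 9.27 and 8.41 to 8.87, with 3 of 8 lower and 1 higher (median -0.20). Dcn was at 1826 to 2473 (median 2332) against 814 to 1816 (median 1148), at -0.86. Lum was at -1.16, -1.34 and -0.01 at the 3 times, and its average of -0.83 thus rests on 0 and 1 h, while the collagen genes Col1a1 and Col1a2 were not called, at -0.01 and -0.06. Their part in the Dcn and Lum differences was not tested.

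Across all genes the averaged differences computed within numbers 1, 2 and 3 correlated pairwise at r = 0.789, 0.826 and 0.864, as a description over genes. Each of the 314 genes had the same sign in all 3 numbers, which their choice by the pooled average favours. Of the 131 other probe sets of these genes, 99 were called in the same direction, 30 were not called and 2 were called the opposite way, for Mkrn1 (0.16 against -0.65) and Mmp24 (0.15 against -0.74). Among the genes named above, other probe sets also gave -0.29 for Cnksr2, 0.60 for Mcf2l, -0.51 and -0.85 for Ildr2, -0.35 for Sorcs3 and 0.36 and 0.12 for Syn2, all called. Those of Grin2b and 1 of those of Aqp4 were not called, at -0.10 and 0.09, and the other of Aqp4 was called at 0.26.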

How the data were processed

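Each of the 18 samples is 1 array of total RNA, labelled as biotin cRNA by Affymetrix procedures, per the labels' protocols. The table deposited by the authors holds 1 linear signal intensity per probe set and array. Probe summarization and normalization are not given in the sources used here. As deposited, array medians lay between 240.03 and 248.02, arrays of a group correlated at 0.994 to 0.998, and no array was left out. The number of arrays limits the precision.

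Of 31099 probe sets, 20832 had 1 symbol in the platform annotation, 436 several and 9831 none, and 20764 matched RefSeq (GRCr8), used for names and promoters. The annotation can be old. Intensities below the table's 20th percentile (72.6, the floor) were set to that floor before taking log2, which understates folds of dim genes. Each of 14218 genes was represented by its brightest probe set and tested if it exceeded its array's 40th percentile on at least 3 arrays.

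limma 3.58.1 in R 4.3.3 (lmFit, eBayes; tested on simulated data) fitted 6 group means plus the replicate number as a fixed block. Same-numbered arrays deviated together (correlations of deviations from group means 0.168 to 0.741; different numbers -0.625 to 0.425), so numbers were taken to pair the arrays. P-values are two-sided, Benjamini-Hochberg adjusted over all 10934 genes.

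Genes were named by a rule. It took the MEF2 family, the 20 largest rises and 20 largest falls with 1 sign in all 9 pairs (without LOC and RGD symbols), up to 5 genes of smallest adjusted p per list and the 10 smallest F-test p among called genes. Other list members and the promoter genes were chosen after their values were seen. The comparison and the 30 gene lists were chosen with earlier results of these data known. The count at 1.5-fold was added after seeing how many genes were called.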

Additional observations from a re-analysis of the deposited data

Results flagged for a closer look

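For 13 named genes the RNAi difference was not the same at 0, 1 and 6 h by the moderated F test in limma, which is the difference itself tested. Adjusted p-values were 0.003613 for Trpc6 and Sh3rf1, 0.003843 for Chodl and Sdhaf3, 0.00387 for Imp3, 0.004053 for Prkca and Neurod6, and 0.005451 for Otud1, Pwwp3b and Lin7a. They were 0.008082 for Prmt8, 0.03457 for Bid and 0.04476 for Tchh. The first 10 of these genes are described in the report with their values at each time.

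Prmt8 was at -1.25 and -1.51 at 0 and 1 h and at -0.51 at 6 h. Its control signals were 3426 to 4109 at the first 2 times and 2713 to 3310 at 6 h, and its RNAi signals were 1167 to 1706 and 1757 to 2426, so the control arm was lower and the RNAi arm higher at 6 h. Bid, an activator of apoptosis, was at -0.42, -0.45 and -0.08. Tchh was at -1.04, -0.99 and -2.38. Its control signals were 94.8 to 206 at 0 and 1 h and 1368 to 1727 at 6 h, against 58.5 to 82.6 and 228 to 427 in RNAi arrays, with 3 RNAi arrays at the floor.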

How the results depend on the processing

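Over 34 alternatives the averaged comparison stayed within 1.5 times its counts of calls. They were 3794 to 5335 with arrays or a replicate number left out, 4108 with no replicate block (5229 with it) and 3994 to 6068 under the others. At 1.5-fold, a count added after seeing the data, the range was 223 (mean of all probe sets) to 338. Of the 314 genes at 1.5-fold, at least 313 were still called under every alternative except the stricter filter, which tested and called 276. The share called higher among called genes was 53.3% to 58.7%. Quantile normalization and median centring moved the median of all genes from 0.0118 to 0.0135 and 0.0111.

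The F test between times was less stable, with 5 genes with no replicate block, 62 with no filter on dim genes and 491 with array quality weights, against 94. Leaving out arrays or numbers gave 0 to 132. The 0 came in limma without number 2 (722 at an unadjusted p under 0.05) and without number 3 (789). With no replicate block, 1624, 1869 and 1883 genes were called at 0, 1 and 6 h. The ranges with arrays or numbers left out were 1323 to 3190, 1589 to 3236 and 1573 to 3312. The causes were not tested.

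Of 172 named genes called, 148 were called under all 34 alternatives that tested them, and 24 lost the call somewhere. Of these, Grin1 reversed, at 0.1192 (adjusted p = 0.07231; range over its alternatives 0.000965 to 0.0823) with the mean of all probe sets. The array-weights fit stopped before its tolerance was reached. Without the block, the lists' counts higher fell from 2 to 1 for deacetylases and cofactors and for the inhibitory synapse. Interferon response genes called higher were 2 instead of 7 under the stricter filter, which tests fewer of them.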
